A study of Mus musculus with 13 samples.

Results

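Macrophages of the sciatic and the optic nerve were compared together with microglia of the brain, to find what both nerves share and the brain lacks or has more of. All 13 libraries of the series entered this comparison: 4 of sciatic nerve macrophages, 4 of optic nerve macrophages and 5 of brain microglia. For each gene the mean of the sciatic and optic nerve levels, with equal weight for each nerve, was set against the brain level. Every library was made from total RNA of C57BL/6J mice. The labels name no mutation, transgene, treatment, age or sex, and the design text compares the cell types without a lesion. How the cells were sorted and how many animals went into a library is not given in the labels. The p-values therefore measure the spread between these samples, which may be technical. The 5 brain columns carry a prefix that no label explains and were taken as brain by elimination, because brain is the only group with 5 libraries.

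Microglia are the resident macrophages of the brain, a long-lived population whose identity depends on TGF-beta signalling and on transcription factors such as Sall1. The optic nerve is a tract of the central nervous system, whereas the sciatic nerve is peripheral and is populated by tissue macrophages outside the microglial lineage. Macrophages of any origin answer stress, digestion of the tissue or microbial signals within minutes with immediate early genes of the AP-1, Egr and Nr4a families, and then with NF-kB targets, which include both cytokines and the inhibitors that shut the pathway down. Such genes are also known to be switched on while cells are being isolated. The labels give no step of the preparation, so a response of the cells in the tissue and a response during isolation cannot be told apart here.

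Total counts ran from 10.9 to 23.5 M per library. Brain libraries 1 and 2 stood apart from the other brain libraries, with a mitochondrial share of 3.79% in brain 1 against 0.410 to 0.868% in the other 4 and a mean correlation with its own group of 0.892, the lowest of all 13 libraries. P2ry12, described below, was at 4841 and 5897 CPM in brain 1 and 2 and at 10294 to 10466 in brain 3 to 5. Fold changes also moved with exon length. The tested genes were cut into 10 bins of equal size by the summed length of their exons. In the bin of the shortest (median 983 bases) the median log2 fold change of the nerves against brain was 0.19, and in the bin of the longest (median 11976 bases) it was -0.51. Between the nerves the medians of the same bins were 0.02 and 0.12. The part of this trend in any single result was not tested.

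**Figure D1:**
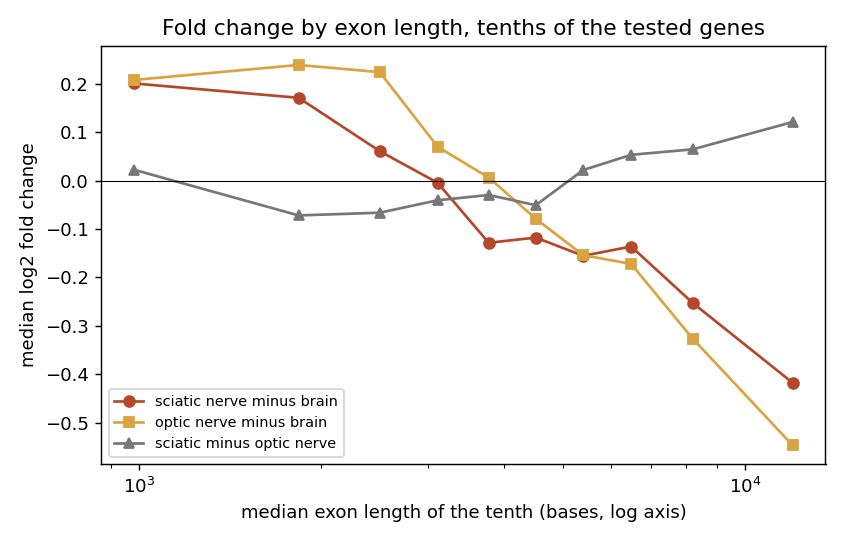
Median log2 fold change (vertical axis) in each of 10 bins of the tested genes, ordered by median exon length in bases (horizontal log axis), for sciatic nerve minus brain, optic nerve minus brain and sciatic minus optic nerve. Both nerve curves, which share the brain libraries, fall from 0.20 and 0.21 in the shortest bin to -0.42 and -0.55 in the longest, while the curve between the nerves stays within -0.07 to 0.12.

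Of 13246 genes with enough counts to test, 6639 differed between the nerves and the brain at an adjusted p under 0.05 (50.1%, quasi-likelihood test of edgeR, adjusted by Benjamini-Hochberg over every tested gene). In the nerves 3141 genes were higher (23.7%) and 3498 were lower (26.4%), and 2054 and 2481 of them differed by at least 2-fold (15.5% and 18.7%). The median log2 fold change over all tested genes was -0.10. These percentages are the background for the share of each gene group that was called. Below, a fold change of the nerves is on the log2 scale for the mean of both nerves against brain. The value after ± is an approximate SE over 8 nerve and 5 brain libraries. It is the size of the fold change divided by the square root of the F of its quasi-likelihood test. Values for 1 nerve against brain rest on the same brain libraries.

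Sciatic and optic nerve differed from each other in 2892 of the tested genes (21.8%). Among the genes higher in the nerves, 2107 (67.1%) did not pass the test between the nerves, and among the genes lower in the nerves 2473 (70.7%) did not. For genes higher in the nerves and different between them, the sciatic nerve was the higher of the nerves in 861 and the optic nerve in 173. Among the lower genes the order was the other way round, with the optic nerve above the sciatic nerve in 877 and below it in 148. The separation of the libraries gives a second view. All 8 nerve libraries lay above all 5 brain libraries for 1642 tested genes (12.4%) and below them for 1287 (9.72%). No counts in any brain library were found for 203 of the genes called higher, and no counts in any nerve library for 15 of those called lower.

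**Figure D2:**
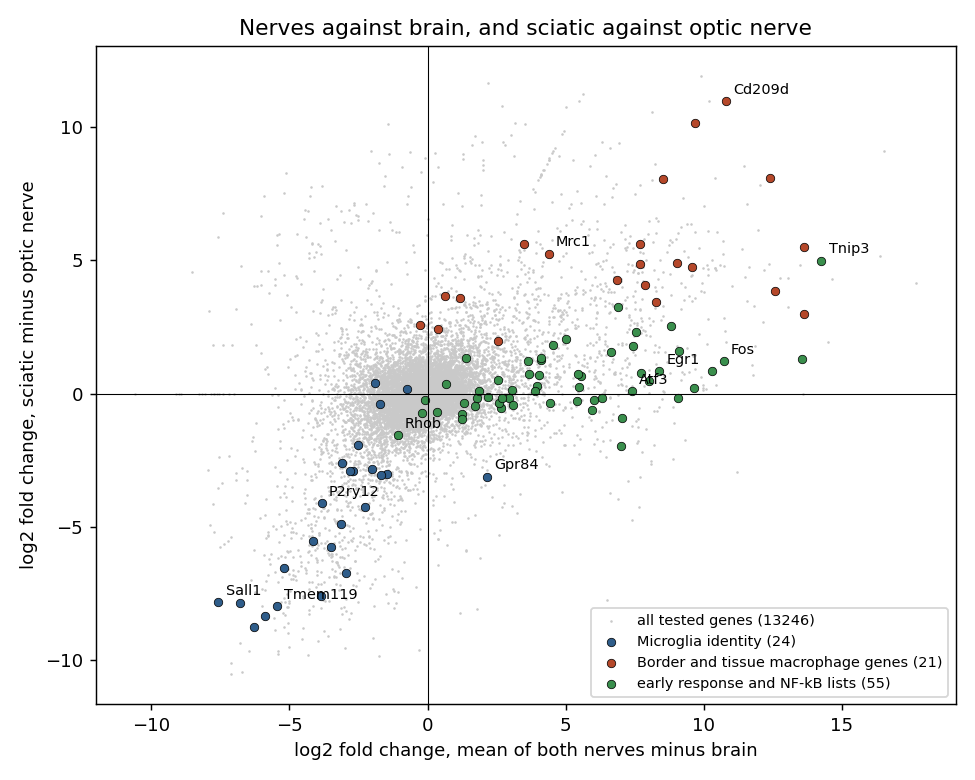
Each tested gene by its log2 fold change of the mean of both nerves minus brain (horizontal axis) and of sciatic minus optic nerve (vertical axis), with gene groups coloured. Most early response genes lie to the right, and 38 of the 55 lie within 1 of the horizontal line of no difference between the nerves. Of all 13246 tested genes 9231 lie within 1 of that line. Microglia identity genes lie mostly to the lower left, and border macrophage genes mostly to the upper right.

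The gene groups differed in how far apart the nerves were. Over the AP-1, Egr, Nr4a, Ier and NF-kB feedback genes, 55 in all, the median size of the difference between sciatic and optic nerve was 0.69 on the log2 scale, 38 of the 55 had a difference under 2-fold, and 22 (40.0%) passed the test between the nerves. Over all 13246 tested genes that median was 0.55, 9231 had a difference under 2-fold and 21.8% passed. Over 24 microglia identity genes the same median was 4.19 and 21 passed (87.5%), and over 21 border macrophage genes it was 4.75 and all 21 passed. The difference between these groups was not itself tested.

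**Figure D3:**
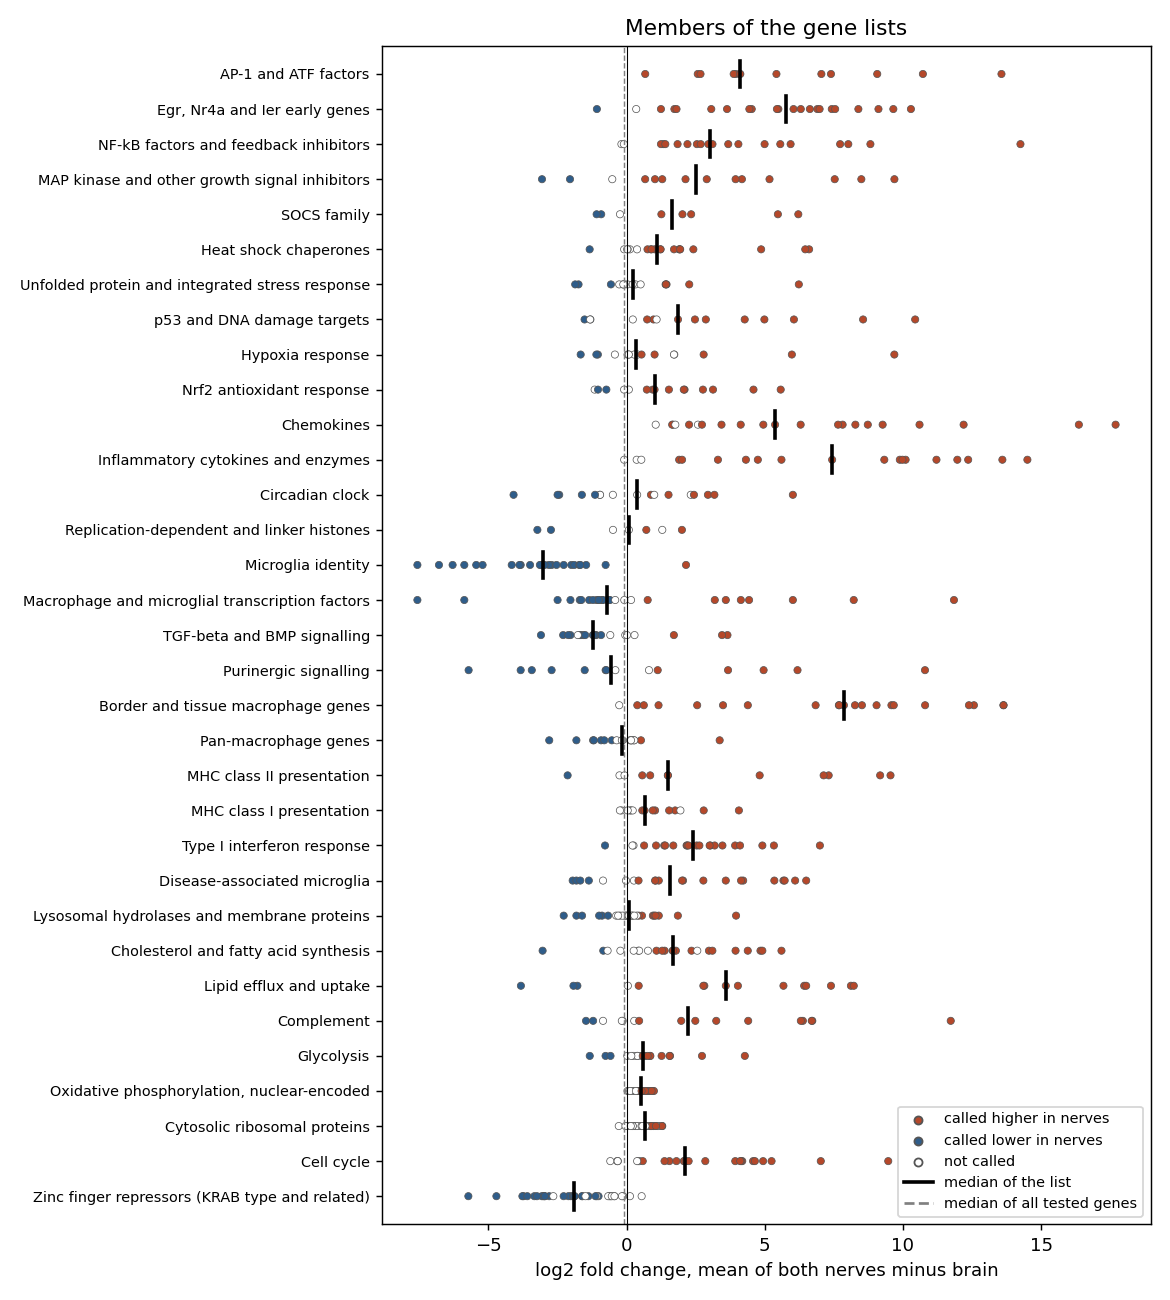
Log2 fold change of the mean of both nerves minus brain (horizontal axis) for every tested member of the gene groups named on the vertical axis, 1 point per gene, with the median of each group as a bar and the median of all genes as a dashed line. The AP-1, Egr, NF-kB feedback, chemokine, cytokine and border macrophage groups have medians between 3.03 and 7.87. Microglia identity has a median of -3.03.

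The AP-1 transcription factors, which dimerise to bind stress-responsive enhancers, were higher in the nerves in every case. All 13 listed members passed the test, with a median log2 fold change of 4.12, and for 12 of them the 8 nerve libraries all lay above the 5 brain libraries. The AP-1 subunit Fos measured 3855, 3289, 2966 and 3279.5 CPM in sciatic nerve libraries 1 to 4, 1272, 1269, 1126 and 2041 in optic nerve libraries 1 to 4 and 0.302, 2.88, 0.839, 1.36 and 0.710 in brain libraries 1 to 5, where CPM is the count relative to the TMM-scaled library size. Every nerve library lay above every brain library. Its log2 fold change was 10.72 ± 0.49 (adjusted p = 2.29e-10), and the sciatic nerve exceeded the optic nerve by 1.23 (adjusted p = 0.0244). Jun, its usual partner, was already well expressed in brain. Its levels were 839.6, 608, 548 and 648 CPM in sciatic nerve, 588, 921, 580.4 and 1325 in optic nerve and 128, 110.0, 128, 134 and 131 in brain, a log2 fold change of 2.58 ± 0.21 without overlap of the groups, and the difference between the nerves did not pass (-0.37, adjusted p = 0.304).

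Atf3, a stress-induced factor of the same class that damps Toll-like receptor signalling, was nearly level across the nerves. It measured 3644, 2981, 2455 and 3309 CPM in sciatic nerve, 2574, 3244, 2794 and 2913 in optic nerve and 14.9, 23.1, 18.8, 12.8 and 18.9 in brain. The log2 fold change was 7.40 ± 0.21 (adjusted p = 3.59e-12) and the difference between the nerves 0.10 ± 0.18. Fosb, which had a single count over the 5 brain libraries, measured 251 to 313 CPM in sciatic and 89.2 to 152 CPM in optic nerve.

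Among 22 Egr, Nr4a, Ier and related early genes, 20 were higher in the nerves, 1 was lower and 1 did not pass, with a median of 5.77. The zinc finger factor Egr1 measured 1871, 1687, 1622 and 2057 CPM in sciatic nerve, 885, 946, 760.3 and 1436 in optic nerve and 2.04, 6.51, 1.87, 4.88 and 4.47 in brain. The orphan nuclear receptor Nr4a1 measured 1162, 778, 1051 and 958 CPM in sciatic nerve, 283, 340.1, 326 and 344 in optic nerve and 0, 2.17, 1.12, 0.454 and 1.002 in brain. Neither gene overlapped between nerves and brain. The log2 fold changes were 8.39 ± 0.38 for Egr1 (adjusted p = 2.11e-10) and 9.12 ± 0.51 for Nr4a1 (adjusted p = 1.85e-09), with the sciatic nerve above the optic nerve by 0.85 (adjusted p = 0.0662) and 1.61 (adjusted p = 0.00864). Nr4a3, with 3 counts over all brain libraries, measured 20.9 to 71.8 CPM in the nerves, and Arc, an early gene best known from neurons, 6.08 to 17.5 CPM. Myc did not pass, with a log2 fold change of 0.35 ± 0.17 (adjusted p = 0.0957).

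Rhob, a small GTPase gene that many cells induce early, was the exception of this group. It measured 105, 74.02, 69.5 and 101 CPM in sciatic nerve, 268, 236, 166 and 349 in optic nerve and 298, 423, 291, 303 and 253 in brain. The sciatic libraries lay below all brain libraries and the optic libraries overlapped with them. The log2 fold change was -1.07 ± 0.18 (adjusted p = 0.000177), made of -1.85 in sciatic and -0.30 in optic nerve against the same brain libraries.

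**Figure D4:**
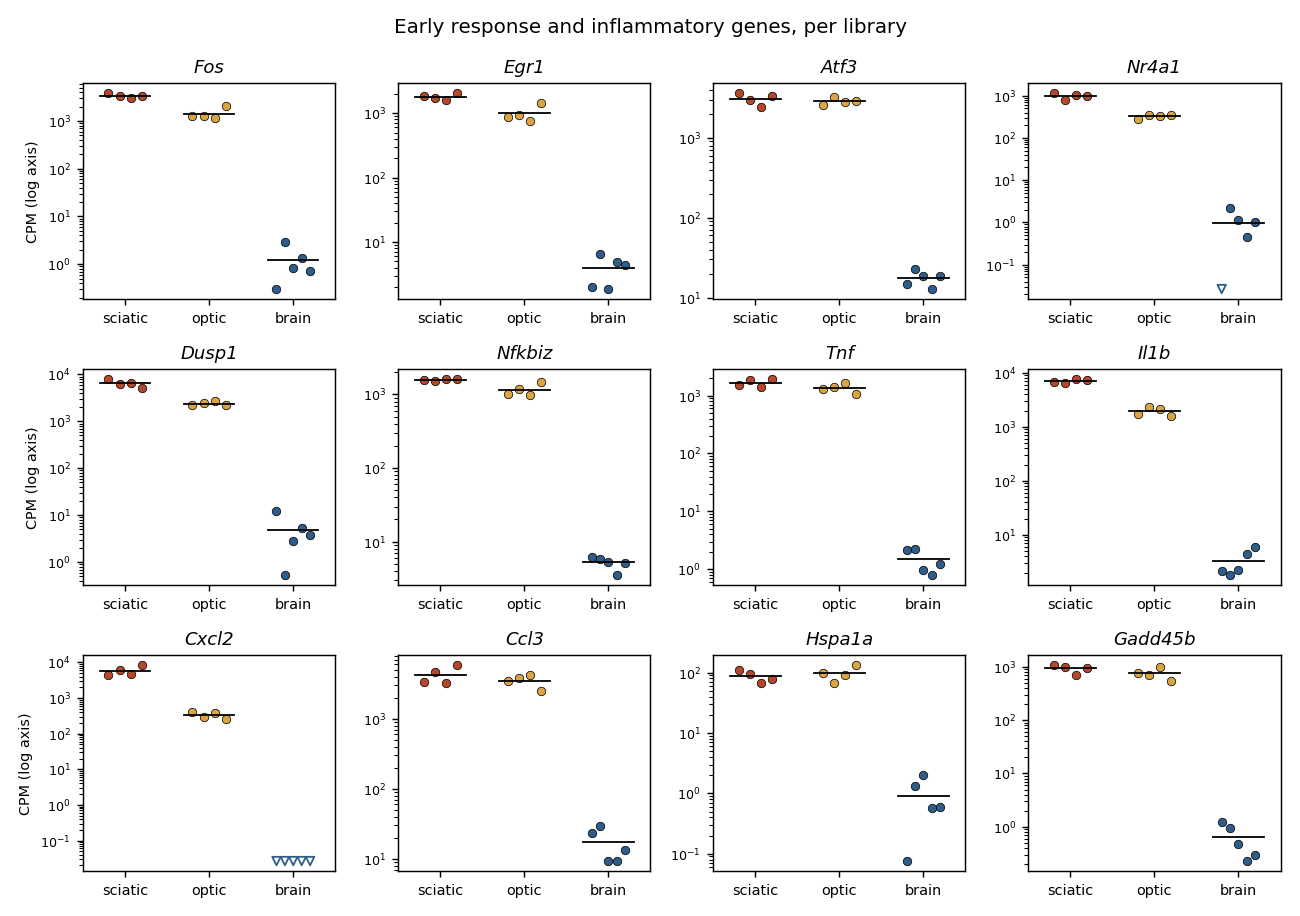
CPM on a log axis in each of the 13 libraries, grouped as sciatic nerve, optic nerve and brain, for early response genes, 1 panel per gene, with a black line at the group mean and open triangles for libraries with 0 counts drawn at the level that 3 counts over the group would give. Fos, Egr1, Atf3 and Nr4a1 lie in separate ranges in nerves and brain. Between the nerves Atf3 overlaps, whereas the sciatic libraries lie above the optic ones for Fos, Egr1 and Nr4a1.

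NF-kB is held in the cytoplasm by IkB proteins, and its targets include the genes that restrain it again. Of 20 such factors and inhibitors 18 were higher in the nerves, with a median of 3.03. For all 18 the nerve libraries lay above all brain libraries. Nfkb1 and Cyld did not pass, at -0.19 ± 0.17 and -0.10 ± 0.19 (adjusted p = 0.387 and 0.681). Nfkbia, which encodes the IkB-alpha inhibitor, measured 3413, 3002, 2634 and 2887 CPM in sciatic nerve, 1756, 1606, 2447 and 1572 in optic nerve and 153, 186, 135, 119 and 117 in brain, a log2 fold change of 4.05 ± 0.18 (adjusted p = 1.82e-10). Nfkbiz, a nuclear IkB that co-activates secondary response genes, measured 1558, 1542, 1619 and 1619.9 CPM in sciatic nerve, 1021, 1171, 974 and 1464 in optic nerve and 6.27, 5.80, 5.32, 3.52 and 5.18 in brain. Its log2 fold change of 8.02 ± 0.21 (adjusted p = 1.68e-12) was made of 8.25 in sciatic and 7.80 in optic nerve. Tnfaip3, the ubiquitin-editing inhibitor A20, was higher by 3.68 ± 0.26, with 662 to 1075 CPM in sciatic nerve, 449 to 531 in optic nerve and 26.4 to 67.1 in brain.

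Of these 20 genes 6 were higher in sciatic than in optic nerve and 2 lower. Zfp36 and Tnip3 were among the 6. Zfp36 encodes tristetraprolin, which binds AU-rich elements and speeds the decay of cytokine messages. It measured 4981, 5341, 5696 and 6076 CPM in sciatic nerve, 1268, 1066, 1451 and 1634 in optic nerve and 68.1, 70.5, 99.7, 92.5 and 97.95 in brain, and the sciatic nerve stood 2.03 above the optic nerve (adjusted p = 6.52e-07). Tnip3, an A20-binding inhibitor, had no count in any brain library. It reached 586, 741, 853 and 739 CPM in sciatic and 26.3, 23.7, 22.4 and 19.6 CPM in optic nerve. The mean CPM of the 8 nerve libraries, set mostly by the sciatic nerve, was at least 14191-fold higher than 3 counts over the brain libraries would give. The promoters of Zfp36 and Tnip3 are shown because they hold the kind of site that the early response and the NF-kB response are known for. The bases just before the start site, from RefSeq on GRCm38.p6, read 5′ to 3′ on the gene's strand, at chr7:28379229-28379388 (minus strand) and chr6:65590238-65590397 (plus strand). Capitals mark a CArG box, the serum response factor motif, in Zfp36 and an NF-kB motif in Tnip3.
Zfp36: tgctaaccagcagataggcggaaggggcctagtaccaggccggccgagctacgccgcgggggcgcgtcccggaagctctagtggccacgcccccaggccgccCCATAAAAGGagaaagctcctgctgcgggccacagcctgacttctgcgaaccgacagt
Tnip3: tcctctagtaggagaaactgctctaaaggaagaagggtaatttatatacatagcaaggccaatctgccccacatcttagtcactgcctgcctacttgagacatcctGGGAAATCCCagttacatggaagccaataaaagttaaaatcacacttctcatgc
The 250 bases before the start were searched on both strands. The NF-kB motif was found in 7.01% of 27025 promoters, in 8.55% of the 9453 promoters of tested genes, and in 8 of 17 promoters of the NF-kB factor and inhibitor genes. Among 322 promoters of genes higher by at least 4 in log2 in each nerve than in brain it was in 15.8%, and among 297 of genes lower by at least 2 in log2 in each nerve it was in 6.73%. The AP-1 motif TGANTCA was in 4.18% of the promoters of tested genes and in 12.1% and 4.38% of the same higher and lower sets. CArG boxes were in 1.11% of the promoters of tested genes and in 3 of the 322. These are matches of letters, not measured binding.

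MAP kinase phosphatases and related inhibitors end the growth factor and stress signals upstream of AP-1. Of 14 tested members 11 were higher and 2 lower, with a median of 2.52. Dusp1, a nuclear phosphatase of p38 and JNK, measured 7999, 6203, 6489 and 5224 CPM in sciatic nerve, 2251, 2464, 2666 and 2176 in optic nerve and 12.1, 0.534, 2.80, 5.34 and 3.72 in brain. The brain libraries varied widely but none reached the nerves, and the log2 fold change was 9.69 ± 0.65 (adjusted p = 1.47e-08). Dusp2 was higher by 8.50 ± 0.36. The members that were lower, Dusp6 and Dusp7, encode cytoplasmic phosphatases that prefer ERK. Dusp6 measured 88.5, 85.2, 76.2 and 105 CPM in sciatic nerve, 101, 108, 62.5 and 197 in optic nerve and 473, 674, 971, 1056 and 1075 in brain. The nerves lay below all brain libraries, with a log2 fold change of -3.06 ± 0.25 (adjusted p = 1.38e-07). Each nerve alone was at -3.26 (sciatic) and -2.86 (optic), and for Dusp7 at -2.04 and -2.05. The Dusp1 promoter at chr17:26508473-26508632 (minus strand, RefSeq, GRCm38.p6) holds the full cyclic AMP response element TGACGTCA, in capitals.
Dusp1: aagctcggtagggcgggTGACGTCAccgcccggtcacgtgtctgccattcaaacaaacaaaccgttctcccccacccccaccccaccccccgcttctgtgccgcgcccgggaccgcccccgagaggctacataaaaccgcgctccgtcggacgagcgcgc
This element was in 2.88% of the promoters of tested genes and in 2 of 13 promoters of the phosphatase and inhibitor genes.

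SOCS proteins, which block JAK-STAT signalling, also divided. Socs1, Socs2, Socs3, Socs4 and Cish were higher, Socs5 and Socs6 were lower, and Socs7 did not pass. Socs3 measured 1275, 851, 1372 and 894 CPM in sciatic nerve, 844, 909.9, 1009.7 and 952 in optic nerve and 15.6, 16.3, 21.5, 23.97 and 35.8 in brain. The nerves overlapped with each other and not with brain, and the log2 fold change was 5.48 ± 0.25 (adjusted p = 2.61e-10). Socs6 was lower without overlap (log2 fold change -1.08 ± 0.21). Socs5 overlapped (-0.92 ± 0.34), and its call was lost without brain 2, 3 or 5, optic nerve 1, 2 or 4, or sciatic nerve 2 or 3.

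Heat shock chaperones, which refold damaged proteins, were higher in 14 of 20 and lower in 1, with a median of 1.12. The inducible Hsp70 gene Hspa1a measured 112, 93.5, 68.3 and 77.3 CPM in sciatic nerve, 97.8, 67.7, 90.3 and 134 in optic nerve and 0.0755, 1.32, 2.01, 0.568 and 0.585 in brain. Its near-identical neighbour Hspa1b measured 71.1, 67.5, 44.9 and 52.4 CPM in sciatic nerve, 61.3, 42.4, 54.5 and 78.2 in optic nerve and 0.302, 2.92, 1.82, 2.54 and 2.21 in brain. Reads of this pair cannot be assigned with certainty, so the split between them is uncertain. Both lay above all brain libraries in every nerve library, with log2 fold changes of 6.61 ± 0.47 and 4.87 ± 0.38, and the nerves differed by -0.15 and -0.0036, neither past the threshold (adjusted p = 0.848 and 0.997). Hsf2, a heat shock factor with low counts, was the lower member (-1.34 ± 0.53, adjusted p = 0.0484), and that call was lost without any 1 of the 4 sciatic libraries, of optic nerve 1 to 3 or of brain 1 to 3.

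Growth arrest and p53 target genes were higher in 10 of 15 tested members and lower in 2, with a median of 1.86. Gadd45b, a stress sensor that activates p38 and is an NF-kB target, measured 542 to 1088 CPM in the nerves against 0.227 to 1.21 in brain. Its log2 fold change was 10.44 ± 0.41 (adjusted p = 6.19e-11), and Plk2, a stress-inducible kinase, was higher by 8.56 ± 0.70. Sesn1 and Trp53inp1, also p53 targets, were lower (log2 fold changes -1.31 ± 0.21 and -1.52 ± 0.55), and the call of Trp53inp1 was lost without brain 3, 4 or 5, optic nerve 4, or sciatic nerve 1 or 2. Antioxidant genes under Nrf2 were higher in 10 of 15 and lower in 2, led by sulfiredoxin Srxn1 (5.58 ± 0.42) and haem oxygenase Hmox1 (4.59 ± 0.31).

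Other stress programmes moved less. Of 17 tested genes of the unfolded protein and integrated stress response 5 were higher and 3 lower, with a median of 0.22. The higher members included Ppp1r15a, a phosphatase subunit that reverses translational arrest (6.23 ± 0.40), and Ddit3, the CHOP factor, at 1.30 in sciatic and 3.23 in optic nerve. The sensor kinase gene Eif2ak3 was lower (log2 fold change -1.86 ± 0.25). Hypoxia genes were higher in 5 of 16 and lower in 3, with a median of 0.34, close to the share called over all genes. Circadian clock genes were higher in 6 and lower in 6 of 17. The members that were higher included Per1 (2.94 ± 0.37), which stress signals also induce, and Nfil3 (3.18 ± 0.26), whereas the PAR-domain factor Hlf (-4.09 ± 0.96) and Bhlhe41 (-2.50 ± 0.28) were lower.

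Chemokine genes, which call in leukocytes, were higher in the nerves in 17 of 21 and lower in none, with a median of 5.38. The other members, Ccl5, Cxcl9, Cxcl13 and Cx3cl1, did not pass. Cxcl2, a neutrophil attractant, measured 4494, 6000.4, 4601 and 8511 CPM in sciatic nerve and 415, 291, 383 and 256 in optic nerve, with no count in any brain library. The mean CPM of the nerve libraries, set mostly by the sciatic nerve, was at least 117629-fold above the level that 3 counts over the brain libraries would give. For Cxcl2 the sciatic nerve exceeded the optic nerve by 4.13 (edgeR adjusted p = 8.75e-07). Its neighbour Cxcl1, also without a brain count, measured 2548 to 4324 CPM in sciatic and 68.7 to 117 CPM in optic nerve. Cxcl1 and Cxcl2 lie near each other on chromosome 5, and their promoters are shown side by side because each carries the same NF-kB letters, in capitals, at a different distance from the start (chr5:90891085-90891244 and chr5:90903739-90903898, plus strand, RefSeq, GRCm38.p6).
Cxcl1: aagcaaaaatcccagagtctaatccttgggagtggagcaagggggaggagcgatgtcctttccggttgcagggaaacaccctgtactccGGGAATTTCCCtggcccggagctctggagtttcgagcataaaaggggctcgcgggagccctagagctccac
Cxcl2: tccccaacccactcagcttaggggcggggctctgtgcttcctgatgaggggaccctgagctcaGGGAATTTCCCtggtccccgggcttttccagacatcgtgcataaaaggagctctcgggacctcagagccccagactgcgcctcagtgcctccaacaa
In each the capitals hold 2 overlapping matches. The motif was in 5 of 15 chemokine promoters and in 4 of 14 promoters of cytokine and enzyme genes.

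The macrophage inflammatory proteins Ccl3 and Ccl4 were present in brain and much higher in the nerves. Ccl3 measured 3375, 4624, 3257 and 5871 CPM in sciatic nerve, 3452, 3813, 4244 and 2462 in optic nerve and 23.7, 29.97, 9.42, 9.31 and 13.3 in brain. Ccl4 measured 4276, 6075, 4182 and 6943 CPM in sciatic nerve, 7756, 8817, 8848 and 5643 in optic nerve and 31.2, 79.5, 16.3, 12.2 and 20.9 in brain. The log2 fold changes were 7.82 ± 0.41 and 7.65 ± 0.53 (adjusted p = 1.03e-09 and 1.94e-08), and the nerves differed by 0.29 and -0.53, which did not pass. Cxcl10, an interferon-inducible attractant of T cells, was higher by 6.30 ± 0.79, with 224 to 389 CPM in sciatic nerve, 193 to 343 in optic nerve and 0 to 7.51 in brain. Of the 21 chemokine genes 12 passed the test between the nerves, 11 of them higher in the sciatic nerve.

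Of 19 tested inflammatory cytokines and enzymes 16 were higher, with a median of 7.44, the highest of the response groups. Il1b, the inflammasome-processed cytokine, measured 6746, 6514, 7682 and 7439 CPM in sciatic nerve, 1709, 2358, 2147 and 1571 in optic nerve and 2.19, 1.82, 2.24, 4.43 and 6.10 in brain. Its log2 fold change was 10.10 ± 0.39 (adjusted p = 4.46e-11), with the sciatic nerve 1.87 above the optic nerve. Tnf, which drives NF-kB itself, measured 1526, 1829, 1415 and 1938 CPM in sciatic nerve, 1274, 1383, 1654 and 1072 in optic nerve and 2.19, 2.28, 0.979, 0.795 and 1.25 in brain, a log2 fold change of 9.98 ± 0.33 (adjusted p = 1.46e-11). Here the nerves lay close, with a difference of 0.32 (adjusted p = 0.426). Ptgs2, the inducible cyclooxygenase, and Sphk1, which makes sphingosine-1-phosphate, had no brain counts. Ptgs2 measured 220.2 to 419 CPM in sciatic and 51.4 to 93.9 in optic nerve, at least 7175-fold higher than brain, and Sphk1 measured 51.1 to 132 CPM over the 8 nerve libraries, at least 3105-fold higher. Il12b, Il18 and Il27 did not pass.

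Microglia identity genes went the other way. Of 24 listed genes 23 were lower in the nerves and 1, Gpr84, was higher, with a median of -3.03, and for 16 the nerve libraries all lay below the brain libraries. In bulk samples, fewer cells of a type and less RNA per cell cannot be told apart. The difference was graded. The median was -4.99 in sciatic and -1.38 in optic nerve against the same brain libraries, and 21 genes were higher in the optic than in the sciatic nerve. With the 8 nerve libraries taken as 1 group, whose spread then includes the difference between the nerves, 10 of the 24 were lower. P2ry12, the ADP receptor that steers microglial processes, measured 137, 128, 141 and 158 CPM in sciatic nerve, 2538, 2325, 2539.9 and 2424 in optic nerve and 4841, 5897, 10294, 10389 and 10466 in brain. None of the groups overlapped. The log2 fold change of the mean was -3.83 ± 0.18 (adjusted p = 4.29e-10), made of -5.89 and -1.77, and the difference between the nerves was -4.12 (adjusted p = 1.61e-08).

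Sall1 is the transcription factor that marks microglia among macrophages. It measured 0.196, 0.0692, 0.216 and 0.0666 CPM in sciatic nerve, 30.9, 30.2, 14.8 and 53.4 in optic nerve and 412, 391, 415, 426 and 399 in brain. The brain libraries lay within a narrow range, and the optic nerve libraries all lay far below it. Against brain the log2 fold change was -11.48 in sciatic and -3.66 in optic nerve, -7.57 ± 0.29 for the mean (adjusted p = 4.55e-11). Tmem119, a microglial surface protein, measured 8.57, 7.82, 6.69 and 4.33 CPM in sciatic nerve, 1502, 1424, 1944 and 2054 in optic nerve and 3123, 5086, 5420.2, 5117 and 4915 in brain, so that the fold change in optic nerve was smaller for Tmem119 than for Sall1 (-1.45 against -3.66). Upk1b followed Sall1, at -10.72 in sciatic and -2.86 in optic nerve.

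Cx3cr1, the fractalkine receptor, was lower in each nerve, at -4.26 in sciatic and -1.36 in optic nerve, without overlap. Gpr84, a receptor for medium-chain fatty acids that inflammatory signals induce, was higher by 2.15 ± 0.17, with 215 to 352 CPM in sciatic, 2251 to 3416 in optic nerve and 166 to 233 in brain.

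**Figure D5:**
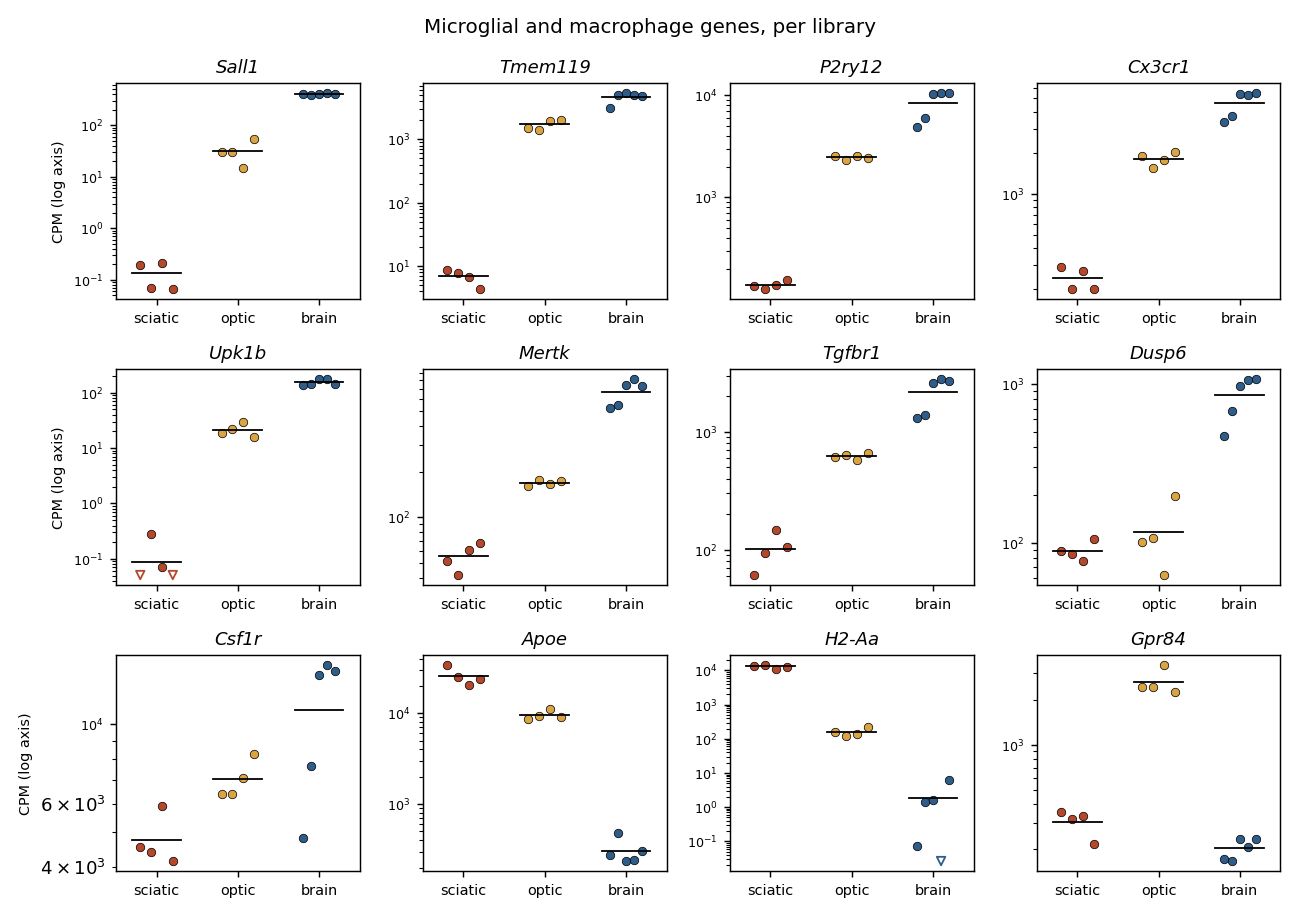
CPM on a log axis in each of the 13 libraries, grouped as sciatic nerve, optic nerve and brain, for identity and tissue macrophage genes, 1 panel per gene, with a black line at the group mean and open triangles for libraries with 0 counts drawn at the level that 3 counts over the group would give. P2ry12, Sall1 and Tmem119 step down from brain to optic to sciatic nerve, whereas Apoe and H2-Aa step up.

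Macrophage transcription factors were lower in 16 of 27 tested and higher in 8. Besides Sall1, the related Sall3 was lower (-10.04 and -1.70), as were Maf, Mef2a, Mef2c and Smad3. Id3, an inhibitor of basic helix-loop-helix factors induced by BMP signals, was higher, with 87.7 to 121 CPM in sciatic and 26.2 to 34.04 in optic nerve and a single count over the brain libraries. Pparg, a lipid-sensing nuclear receptor, had no brain count and was mainly a sciatic gene, at 28.98 to 47.9 CPM there and 0 to 0.302 in optic nerve. Spi1, which encodes the macrophage factor PU.1, did not pass (0.16 ± 0.12, adjusted p = 0.277).

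TGF-beta and BMP signalling genes, on which microglial identity rests, were lower in 13 of 21 tested and higher in 3, with a median of -1.20. Receptors and Smads made up most of the lower genes. Tgfbr1, the type I receptor, measured 61.1, 94.2, 149 and 105 CPM in sciatic nerve, 611, 637, 577 and 659 in optic nerve and 1303, 1394, 2587, 2806 and 2693 in brain, a log2 fold change of -3.10 ± 0.23 (adjusted p = 4.02e-08) without overlap. Smad7, the feedback inhibitor, was lower in the mean, at -4.11 in sciatic and -0.48 in optic nerve. The higher members, Skil, Tgif1 and Bambi, encode repressors or a decoy receptor of the pathway. Ski, a relative of Skil, and the inhibitor Smad7 were among the lower genes. Tgif1 was at 3.47 in sciatic and 3.44 in optic nerve, and Bambi was higher by 3.65 ± 0.51. Bmp2, a BMP ligand outside this list, had no brain count and measured 297 to 489.9 CPM in sciatic and 8.55 to 20.8 in optic nerve.

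Purinergic genes, which sense ATP and adenosine, moved in both directions. P2ry12, P2ry13, P2ry6, P2rx7, P2rx1, Adora3 and Entpd1 were lower, and P2ry1, P2ry2, P2ry14, P2rx4 and Adora2b were higher, of 14 tested. Receptors for adenosine were on either side. Adora3 measured 0.588, 0.208, 0 and 0.0666 CPM in sciatic nerve, 20.03, 16.2, 20.2 and 19.5 in optic nerve and 117, 119, 96.96, 105 and 107 in brain, and its log2 fold change was -5.72 ± 0.29 (adjusted p = 8.29e-10). Adora2b, a low-affinity receptor, had no brain count and measured 31.1, 19.6, 25.6 and 16.1 CPM in sciatic and 4.78, 9.84, 6.03 and 3.49 CPM in optic nerve, at least 550-fold higher.

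Pan-macrophage genes were used to check that all 3 tissues yielded macrophages. Of 18 such genes 2 were higher and 7 lower, with a median of -0.16 against -0.10 for all genes. Over the 18 genes the summed level was 43040.0 to 48750.0 CPM in sciatic nerve, 63920.0 to 76750.0 in optic nerve and 51140.0 to 67660.0 in brain. Csf1r, the growth factor receptor of macrophages, measured 4551, 4407, 5915 and 4150.4 CPM in sciatic nerve, 6382, 6401, 7087 and 8248 in optic nerve and 4808, 7625, 13715, 14631 and 14046 in brain. The groups overlapped and the log2 fold change was -0.92 ± 0.22 (adjusted p = 0.00345). Mertk, an engulfment receptor, was lower without overlap (log2 fold change -2.80 ± 0.14), at 41.7 to 67.7 CPM in sciatic, 161 to 175 in optic nerve and 526 to 817 in brain. Cd14, the lipopolysaccharide co-receptor, was higher (3.37 ± 0.16) without overlap. Adgre1, which encodes F4/80, did not pass (0.13 ± 0.16, adjusted p = 0.547), and the nerves lay on either side of brain, at 1.14 in sciatic and -0.89 in optic nerve.

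Border and tissue macrophage genes, known from macrophages of the meninges, vessels and peripheral organs, were higher in 20 of 21, with a median of 7.87. All 21 were also higher in sciatic than in optic nerve. Their summed level was 21920.0 to 24310.0 CPM in sciatic nerve, 700.3 to 1198 in optic nerve and 612 to 709.8 in brain. Cd163, the haemoglobin scavenger receptor, measured 1176, 1096, 1549 and 1473 CPM in sciatic nerve and 26.3, 21.1, 15.96 and 54.7 in optic nerve, with a single count over the 5 brain libraries. Timd4, a phosphatidylserine receptor of resident macrophages, had no brain count and measured 209, 216, 242 and 283 and 28.3, 25.1, 26.6 and 40.8 CPM, at least 5046-fold higher. Stab1 alone did not pass (-0.27 ± 0.22, adjusted p = 0.332), at 1.02 in sciatic and -1.55 in optic nerve.

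Antigen presentation genes were mostly higher. For MHC class II, 9 of 12 genes were higher and 1 lower, and for MHC class I 8 of 15 were higher and none lower. Without brain 1 the lower genes were 2 of each class, and without brain 1 and 2 they were 2 of class II and 3 of class I. H2-Aa, a class II chain, measured 13519, 14515, 11278 and 13005 CPM in sciatic nerve, 155, 122, 141 and 223 in optic nerve and 0.0755, 1.46, 1.59, 0 and 6.22 in brain. Its difference from brain was larger in sciatic nerve (12.73 against 6.38, difference 6.35, adjusted p = 5.45e-05). Class II genes did not all share this order, since 7 were higher in sciatic and 4 in optic nerve, and H2-Oa, the lower gene, was at -4.94 in sciatic and 0.68 in optic nerve. The class I gene H2-D1 was higher by 2.79 ± 0.17 with no difference between the nerves past the threshold (0.31, adjusted p = 0.278). H2-D1 has close relatives in the genome, so its reads may be shared with them. Interferon-stimulated genes were higher in 19 of 22, with a median of 2.39. Ifitm3, which blocks viral entry, measured 1100.5 to 1440.3 CPM in sciatic nerve, 151 to 289.6 in optic nerve and 6.20 to 17.8 in brain, and the RNA sensor gene Ddx58 was lower (-0.78 ± 0.22).

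Genes known from disease-associated microglia were higher in 15 of 22 and lower in 4, with a median of 1.59. Apoe, the lipid carrier, measured 34113, 25184, 20414 and 24179 CPM in sciatic nerve, 8573, 9386, 11039 and 9015 in optic nerve and 274, 480.2, 236, 240.0 and 305 in brain. Its log2 fold change was 5.68 ± 0.24 (adjusted p = 1.03e-10), with the sciatic nerve 1.45 above the optic nerve. Lyz2, lysozyme, was higher by 6.10 ± 0.20. The lower members were Trem2, Cd9, Ctsd and Cst7. Cst7, an inhibitor of cysteine proteases, had a log2 fold change of -1.95 ± 0.34 in the mean. It measured 0 to 0.415 CPM in sciatic nerve, 42.7 to 70.6 in optic nerve and 9.20 to 20.7 in brain, so that the optic nerve lay above brain, and with the 8 nerve libraries taken as 1 group the value was 1.05.

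Lipid genes divided into synthesis, uptake and efflux. Cholesterol and fatty acid synthesis genes were higher in 14 of 23 and lower in 2, with a median of 1.67. Of the desaturases, Scd2 was lower (log2 fold change -3.04 ± 0.29) and Scd1 higher (4.91 ± 1.21), the latter at 1.37 to 3.53 CPM in sciatic nerve, 0 to 0.914 in optic nerve and 0 to 0.0755 in brain. Among 15 lipid uptake and efflux genes 11 were higher and 3 lower. The 3 lower genes were the sterol transporters Abca1 and Abcg1 and the ubiquitin ligase gene Mylip. The higher genes included Apoe, Apoc1, Lpl and Nr1h3, which encodes a liver X receptor (3.59 ± 0.72 for the latter). Abcg1 measured 6.15, 1.73, 2.59 and 1.13 CPM in sciatic nerve, 27.3, 17.3, 13.8 and 29.4 in optic nerve and 76.2, 109, 125, 112 and 145 in brain. Cd36, a fatty acid and scavenger receptor, was higher, at 12.12 in sciatic and 4.11 in optic nerve.

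Complement genes were higher in 10 of 16 and lower in 2, with C1qa, C1qb and C1qc among those that did not pass. The complement receptor gene Vsig4 had no brain count and measured 3.96 to 41.5 CPM in the nerves, and Cfp, properdin, was higher, at 9.53 in sciatic and 3.91 in optic nerve. C5ar2 was lower (log2 fold change -1.47 ± 0.16) without overlap. Lysosomal genes were higher in 8 and lower in 6 of 27 tested, close to the share called over all genes. Gla, alpha-galactosidase, was higher, at 3.91 in sciatic and 4.02 in optic nerve. Ctsd, cathepsin D, was lower in the mean, at -3.62 in sciatic and -0.01 in optic nerve. Without brain library 1 the number of lower lysosomal genes was 10 instead of 6.

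Housekeeping and growth programmes moved by smaller amounts. Nuclear-encoded oxidative phosphorylation genes were higher in 26 of 35 and lower in none, with a median of 0.52, and 1 of the 35 differed between the nerves. Glycolysis genes were higher in 11 of 21 and lower in 3, with a median of 0.59. Cytosolic ribosomal protein genes were higher in 17 of 45 and lower in none, with a median of 0.68, and none passed the test between the nerves. That count depended on the brain libraries that stood apart: it was 29 without brain 1 and 36 without brain 1 and 2. Against a log2 fold change of 1, none of the 45 ribosomal and none of the 35 oxidative phosphorylation genes passed. Both groups have short transcripts, with median exon lengths of 1840 bases for the ribosomal and 2154 bases for the oxidative phosphorylation genes, in a range where the median of all genes was also above 0. Actb, a reference gene in many assays, was higher by 0.45 ± 0.15 (adjusted p = 0.0199) with overlap, a call lost without brain 3, 4 or 5.

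Cell cycle genes were higher in 19 of 26 and lower in none, with a median of 2.11. Ccnd2, a cyclin of the entry into the cycle, measured 211, 279, 272 and 212 CPM in sciatic nerve, 21.7, 14.7, 20.2 and 20.5 in optic nerve and 0.302, 0.0712, 0, 0 and 0.167 in brain. Bub1, a mitotic checkpoint kinase, had 2 counts over the brain libraries and 0 to 9.29 CPM in the nerves. Zinc finger genes of the KRAB repressor type went the other way, with 22 of 36 tested lower and none higher. Their median was -1.88, and 12 were without overlap. Zfp60 measured 3.40, 4.36, 1.80 and 2.73 CPM in sciatic nerve, 3.32, 4.25, 3.13 and 3.61 in optic nerve and 25.01, 19.04, 31.5, 34.1 and 24.2 in brain, a log2 fold change of -3.01 ± 0.24 (adjusted p = 1.10e-07). The family has many similar members, so reads may be shared among them, and its median exon length of 3951 bases lies between bins with medians of -0.08 and -0.12.

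Outside the gene groups, the rule on shared fold named further genes that were lower in every nerve library. Tmem204, a membrane protein gene, measured 0, 0, 0.288 and 0 CPM in sciatic nerve, 1.76, 2.26, 3.74 and 3.20 in optic nerve and 55.2, 103, 110.0, 105 and 105 in brain. Fam212a was lower, at -4.10 and -3.66 (mean -3.88 ± 0.15, adjusted p = 4.46e-11). Sema4b, a semaphorin, was at -2.998 in sciatic and -4.86 in optic nerve, the zinc transporter gene Slc39a12 at -4.06 and -3.21, and Lrba, a vesicle trafficking gene, at -4.41 and -2.90. Among the higher genes Retnla, a type 2 activation product, had no brain count. It measured 14268, 10883, 11581 and 21001 CPM in sciatic nerve and 41.2, 28.2, 23.1 and 13.3 in optic nerve, so it was shared in direction while the nerves differed by 9.09 (adjusted p = 9.04e-08). Clec4e, the Mincle receptor for mycobacterial lipid, measured 114 to 269 CPM in sciatic and 15 to 23.3 in optic nerve, with no brain count, and Rgcc, a cell cycle regulator without brain counts, 14.1 to 42.6 and 10.5 to 25.1 CPM.

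Markers of other cells were low but not equal across tissues. Fibroblast markers were higher in 7 of 7 tested members of 10 listed, with a summed level of 210.3 to 417.2 CPM in sciatic nerve, 38.1 to 91.4 in optic nerve and 2.27 to 9.15 in brain, and Col3a1, Lum, Mgp and Dpt had no brain count. Schwann cell markers summed to 1713 to 2091 CPM in sciatic nerve, 821 to 1049 in optic nerve and 377 to 788 in brain, with 4 of 6 tested members higher of 14 listed (6 without brain 1 and 2). Pmp22 had the most counts of them, and 1 of the higher members was Egr2, which macrophages also induce early, while Prx, Ngfr and Cdh19 had no brain count. Oligodendrocyte markers summed to 173.2 to 242 CPM in sciatic nerve, 270.7 to 333 in optic nerve and 123.4 to 178.8 in brain. Of 7 tested members Mog, Mbp and Cnp were higher, a count that fell to 1 or 0 under 9 of the alternative settings. Olig1 and Olig2 were at 0 in the nerves, and Opalin, Ugt8a and Olig2 were at 0 in brain. Of the monocyte and dendritic cell markers 7 of 9 tested were higher, such as Cd209a, which had no brain count and measured 314 to 411 CPM in sciatic and 0.376 to 1.95 in optic nerve. Their summed level, which includes Siglech, a gene microglia also express, was 1010.0 to 1216 CPM in sciatic nerve, 1528 to 1974 in optic nerve and 2105 to 3530.0 in brain. Of 13 granulocyte and mast cell markers 2 were tested. Retnlg, a neutrophil gene, was higher, at 1.33 to 1.94 CPM in sciatic and 0.323 to 0.554 in optic nerve with no brain count. Csf3r was lower, while S100a8, Ly6g and Mmp8 had no count in nerves or brain. Among members not tested, Cpa3, Mcpt4, Tpsb2 and Fcer1a had counts in the nerves and none in brain. S100a9, also not tested, had counts in brain and none in the nerves. Markers of erythroid cells summed to at most 0.333 CPM in any library. Of 12 neuron markers 4 were tested. Snap25 and Meg3 were lower in the nerves, and neither was called without brain 1 and 2. The tested neuron markers summed to 26.6 CPM in brain 1, 7.2 in brain 2, 1.63 to 1.84 in brain 3 to 5 and at most 2.198 in any nerve library. Of 15 lymphoid markers 4 were tested, of which Cd2 and Ighm were higher and Cd79b and Il7r lower. Ighm was at 0.7 in sciatic and -0.06 in optic nerve, and its call was lost in 13 of 22 alternative settings. The part of these markers in the results above was not tested.

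Photoreceptor genes, chosen after their values were seen, were counted mainly in brain. The 14 genes summed to 418, 445, 426, 433 and 332 counts in brain libraries 1 to 5, with every gene counted in every brain library, against 0 to 17 counts in the nerve libraries. Pdc, which encodes phosducin, had 30, 21, 16, 29 and 19 counts in brain and none in any nerve library. Relative to the unscaled total the sum was 38.4 CPM in brain 1 and 15.6 to 22.3 in the others. Ttr, a choroid plexus product, had 461, 0, 9, 1 and 216 counts in the brain libraries and none in the nerves. The part of RNA from other cells in the genes lower in the nerves was not tested.

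The mean of both nerves hides genes on which the nerves part. Of the 6607 genes not called in the mean, 833 (12.6%) differed between sciatic and optic nerve. Itgax, which encodes the integrin CD11c, measured 0.196, 0.0692, 0.144 and 0.999 CPM in sciatic nerve, 36.3, 24.4, 18.2 and 38.2 in optic nerve and 6.65, 2.10, 3.50, 11.96 and 5.14 in brain. It was below brain in sciatic and above it in optic nerve (-4.02 and 2.32, difference -6.34, adjusted p = 1.81e-05), and the mean did not pass (-0.85 ± 0.49, adjusted p = 0.160). Pdcd1, the PD-1 receptor, was at -5.13 in sciatic and 4.50 in optic nerve. C1qtnf1 and Tfec had the opposite order, at 8.001 and 3.64 in sciatic and -3.63 and -6.48 in optic nerve. Some calls of the mean went with 1 nerve. Capn3, Liph and Lrrc3 were at -8.61, -9.14 and -10.31 in sciatic nerve and at 0.69, 0.06 and -0.54 in optic nerve. Gprc5c was at 10.39 in sciatic and -0.36 in optic nerve. Among all genes called higher 73 had the nerves on opposite sides of brain, and among those called lower 159 did.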

How the data were processed

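The data are 13 libraries of RNA sequencing. The authors deposited unnormalised counts of reads by gene symbol, obtained with STAR and featureCounts 1.5.1 on mm10, per the submitters' processing notes. The notes do not name the STAR version, annotation, strandedness or handling of multi-mapping reads. Without a known strand setting, reads of a gene and of an antisense neighbour cannot be told apart. The table holds 48587 symbols, and 0 columns of per-sample values were left unused.

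The analysis used edgeR 4.0.16 in R 4.3.3. filterByExpr by group left 13246 genes, TMM scaled the libraries, and a single quasi-likelihood model with a term for tissue was fitted to the 13 libraries. The contrast was the equal-weight mean of sciatic and optic nerve minus brain, taken on the log scale of the model. Sciatic minus optic nerve was tested in the same fit. P-values were adjusted by Benjamini-Hochberg over all genes tested, and genes were called at an adjusted p under 0.05. Folds given as at least a value take the mean CPM of both nerves, not the mean of their log2 levels. The nerve with the higher CPM weighs more in them. No counts over all 5 brain libraries allow a level of up to 0.0265 CPM (3 counts over the group), to which folds against such genes refer. These floors cover counting error only. List medians did not change to 2 decimals with such genes at that bound, in any list with a median given here. On simulated counts with 200 changed genes the recovery was 30% for a simulated log2 fold change of 1 and 60.7% for 2, with 3.83% false calls. The simulation changed 200 of about 12821 genes and shifted both nerves alike. In the data 50.1% of the genes were called and the nerves differed, so these rates need not hold for them.

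Genes were named by rule: a fixed set of 34, the 14 highest and 14 lowest by the smaller of the 2 nerve fold changes among called genes without overlap at a mean of at least 20 CPM, up to 2 called members at each end of every list, and the genes that differ most between the nerves. Members named because they were the few that did not pass or that went against their list, Stab1, Spi1, Nr1h3 and the photoreceptor genes were chosen after their values were seen. Some genes under these rules are not reported here. The lists and the comparison were chosen with earlier results of these data known. Same-numbered samples did not deviate together (correlations from -0.0776 to 0.0773), so the replicate numbers were not used as pairs. Alternatives were other scalings, no filter on low counts, DESeq2 1.42.0, voom of limma 3.58.1, a replicate block, a test against a log2 fold change of 1, the nerves as 1 group, and leaving out libraries. Motifs were searched in RefSeq promoter sequences of GRCm38.p6.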

Additional observations from a re-analysis of the deposited data

Results flagged for a closer look

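Single libraries lay far from the rest of their group in 15 of 168 groups examined (8.93%), where chance alone gives about 1 in 20. In sciatic nerve, Tnfaip3 was 1075 CPM in library 3 against 662 to 711 in the others. In optic nerve, Fos was 2041 CPM in library 4 against 1126 to 1272. For mean log2 CPM over a list, the NF-kB feedback genes stood at 7.72 in optic nerve 3 against 7.49 to 7.51, the heat shock chaperones at 5.96 in optic nerve 2 against 6.25 to 6.28, the inflammatory cytokines at 5.06 in optic nerve 4 against 5.79 to 5.90, and the pan-macrophage genes at 11.06 in optic nerve 3 against 10.88 to 10.91.

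Brain 1 was apart in its mitochondrial share (3.79% against 0.410 to 0.868%), in Tmem119 (3123 CPM against 4915 to 5420.2), in the unfolded protein response genes (5.12 against 5.84 to 6.04 in mean log2 CPM) and in the pan-macrophage genes (10.65 against 10.88 to 10.93). Brain 2 was apart in Jun (110.0 CPM against 127.8 to 133.5), Ccl4 (79.5 CPM against 12.2 to 31.2), Apoe (480.2 CPM against 236 to 305) and the circadian clock genes (2.53 against 2.81 to 2.92 in mean log2 CPM). H2-Aa was 6.22 CPM in brain 5 against 0 to 1.59. Values without a library are given for some counts and calls only, not for each result flagged here.

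For 16 named genes the nerves lay on opposite sides of brain and differed from each other by the test between the nerves, so that their mean describes neither. Higher in sciatic nerve, by the log2 difference between the nerves, were Adgre1 (2.03), Ighm (0.76), Gprc5c (10.74), Slc7a13 (10.11), Tfec (10.12) and C1qtnf1 (11.64). Higher in optic nerve were H2-Oa (-5.62), Cst7 (-7.98), Pfkl (-1.72), Csf3r (-3.02), Tmem8c (-9.81), Capn3 (-9.30), Liph (-9.20), Pdcd1 (-9.63), Itgax (-6.34) and Mobp (-5.69). For Pfkl, Csf3r, Ighm and Liph 1 nerve lay within 0.10 of brain in log2, so the sides differ by little there.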

How the results depend on the processing

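Of 23 alternative settings, the test against a log2 fold change of 1 moved the counts most: 2740 genes differed between nerves and brain (1434 higher, 1306 lower), 1190 between the nerves, and 332 list members were called instead of 503. Counting calls of at least 2-fold gave 2054 higher genes. Leaving out single libraries gave 6061 to 6759 genes in all, 2908 to 3356 higher and 3153 to 3589 lower, 2446 to 3457 between the nerves, 477 to 527 list members and 167 to 172 named genes. The replicate block gave 5696 genes (2841 higher, 2855 lower) and 2478 between the nerves. It is no paired result, since same-numbered samples did not deviate together. The share of calls that were higher was 47.3% and stayed between 42.6% and 54.1%. With the 8 nerve libraries as 1 group Cst7 turned from -1.95 to 1.05. In that setting 10 instead of 23 microglia identity genes, none instead of 4 disease-associated microglia genes and 3 instead of 7 pan-macrophage genes were lower. The spread then includes the difference between the nerves. Without brain 1 and 2, 36 instead of 17 ribosomal genes and 10 instead of 6 lysosomal genes were higher and lower in turn, and the cause was not tested. The AP-1, Egr, NF-kB, chemokine and cytokine lists had 12 to 13, 19 to 20, 17 to 18, 17 to 20 and 16 to 17 higher members over the settings other than the 2-fold one, which was not counted by list. Over named genes 3815 values kept direction and side of the threshold, 129 lost the call, 9 gained it and 1 reversed. Depth limits genes near 0.0265 CPM in brain, where a fold is a bound.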

Other observations

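Some gene groups outside the account above were also measured. Replication-dependent and linker histones, of which 7 of 12 listed were tested, were higher in 2 and lower in 2. Hist1h1c, a linker histone with a polyadenylated message, measured 43.97 to 49.8 CPM in sciatic nerve, 82.2 to 134 in optic nerve and 11.7 to 27.8 in brain, a log2 fold change of 2.004 ± 0.23 (edgeR adjusted p = 4.27e-06), whereas Hist1h1e was at -2.74 ± 0.62. Of 5 tested nuclear-retained long RNAs, Neat1, the scaffold of paraspeckles, was higher (2.51 ± 0.39) and Kcnq1ot1 was lower (-2.06 ± 0.51), with 19.1 to 164 CPM over the brain libraries. Malat1 had 233068 and 150625 counts in brain 1 and 2 against 18191 to 25160 in brain 3 to 5 and 10458 to 65592 in the nerves, and none of the 5 RNAs was lower without brain 1 and 2. Of 8 tested mitochondrially encoded genes 1 was lower, mt-Nd3, which had 136, 65, 24, 43 and 43 counts in the brain libraries and none in any nerve library. That count depended on the brain libraries: 2 of the 8 were higher without brain 1 and 5 without brain 1 and 2, and 2 were lower without brain 3, 4 or 5.

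Of 10 listed astrocyte markers 6 were tested. Aldh1l1 and Gja1 were higher in the nerves, Slc1a3 was lower and 3 did not pass. The call of Aldh1l1 was lost in 14 of the 22 alternative settings counted by gene. Of 12 listed endothelial and mural markers 5 were tested, of which Pecam1 was lower and 4 did not pass. Slc1a3, a glutamate transporter gene that microglia can also express, measured 0.144 to 1.44 CPM in sciatic nerve, 61.4 to 98.5 in optic nerve and 182 to 242 in brain, and Pecam1 0 to 0.533, 1.72 to 10.8 and 10.7 to 39.7 CPM. Gja1, a gap junction gene of astrocytes and fibroblasts, was higher in the nerves, at 18.1 to 83.9 CPM in sciatic and 0 to 7.40 in optic nerve with 1 count over the brain libraries.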
